A study of Homo sapiens with 2 samples.

Results

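The surface markers of B-cell stage are 9 genes for proteins of the cell membrane that are gained or lost as B cells mature, namely MS4A1, CD22, CD72, CD24, CD34, MME, CD38, CD9 and CD40. They were chosen as a list of symbols, each mapped to its Ensembl gene ID, a rule that uses no measured value, although the list was drawn up with earlier results of these data known. The count files hold 57773 gene IDs, and 8 of the 9 members had a row under their own ID. All 8 reached 10 reads in at least 1 library and so belonged to the 19145 genes that were compared. CD24 was not matched under its own ID and is described apart.

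Total RNA from REH and 697 cells was sequenced, with 1 library for each line. Both are established cell lines of B-cell precursor acute lymphoblastic leukemia (B-ALL). REH is positive for the fusion gene ETV6/RUNX1 and keeps no intact copy of ETV6, whereas 697 is negative for the fusion. Both lines were grown untreated in RPMI medium with fetal bovine serum, glutamine and antibiotics. The lines come from different patients and differ in more than this fusion, so the fusion and the line cannot be told apart. Without replicates there is no spread within a line and no p-value, and each ratio compares these libraries rather than the lines in general.

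B cells are followed through development by the proteins on their surface. CD34 marks the earliest progenitors and is lost as cells commit to the lineage, CD10 (encoded by MME) marks the common precursor stage, and CD20 (encoded by MS4A1) appears late and stays on mature B cells. CD22 and CD72 hold back signalling from the B-cell receptor, CD40 receives help from T cells, CD38 is high on precursors and on plasma cells, and CD9 and CD24 vary along the pathway and are part of the panels used to type leukemia cells.

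The REH library held 45188375 reads in genes and the 697 library 41097497. Levels are given as CPM, reads scaled to a common library total by the TMM method, and 3 reads corresponded to 0.0597 CPM in REH and 0.0812 CPM in 697. Of the 10 B-cell precursor markers, 10 had reads in both libraries, among them PAX5 (39793 reads in REH and 45212 in 697) and RAG1 (77158 and 21317). VPREB1, the surrogate light chain gene, had only 3 reads in REH and 10039 in 697. Summed levels of the mature B-cell, T-cell and erythroid markers were low, whereas those of the stromal, plasma cell and, in REH, myeloid markers were not. Of the 4 mature B-cell markers, CR2 had 0 reads in both libraries, and the list summed to 3.18 CPM in REH and 1.16 CPM in 697. FCER2 had 110 reads in REH and 5 in 697, a 16.2-fold difference in CPM with an interval of 6.72 to 50.8. CD27 had 36 and 25 reads and TNFRSF13B 14 and 13. T-cell markers summed to 0.935 and 0.0271 CPM, with CD3D and CD2 at 0 in both. CD3E had 45 reads in REH and 0 in 697, at least 11.0-fold higher in REH against a floor of 3 reads. Erythroid markers summed to 0.418 and 0.379 CPM, with HBB and HBG1 at 0. Myeloid markers stood apart, at 261 CPM in REH and 2.25 CPM in 697. Most of this was MPO, the peroxidase of neutrophil granules, with 12643 reads in REH and 12 in 697, and ITGAM had 403 and 0 reads. CD14 had 29 and 8 reads. CSF1R went the other way, with 30 reads in REH and 61 in 697. LYZ had 1 and 2 reads and FCGR1A 0 in both. The stromal list summed to 153 and 885 CPM, of which VIM was most, COL1A1 had 477 and 387 reads, and COL1A2 and COL3A1 were at 0. Plasma cell markers summed to 276 and 390 CPM, mostly XBP1. The part of any of these differences in the member ratios was not tested. In bulk RNA, fewer cells with a transcript and less of it per cell cannot be told apart.

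To see which markers set the libraries apart, a log2 ratio of REH over 697 was computed for each member with 0.5 reads added to each count, and a gene was called higher in a library where this ratio was 2 or more in size. MS4A1, CD40 and CD34 were higher in REH, CD9 was higher in 697, and CD22, CD72, MME and CD38 lay within the threshold. Thus 3 of 8 members were higher in REH, where 10.9% of the 13489 protein-coding genes compared were, and 1 of 8 was higher in 697, where 7.17% of protein-coding genes were. The median log2 ratio of the 8 members was 0.95, beside 0.02 over protein-coding genes. The median size of the ratio, whatever its sign, was 1.85 for the members and 0.64 for protein-coding genes. With 8 genes these are descriptions of the list.

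**Figure D1:**
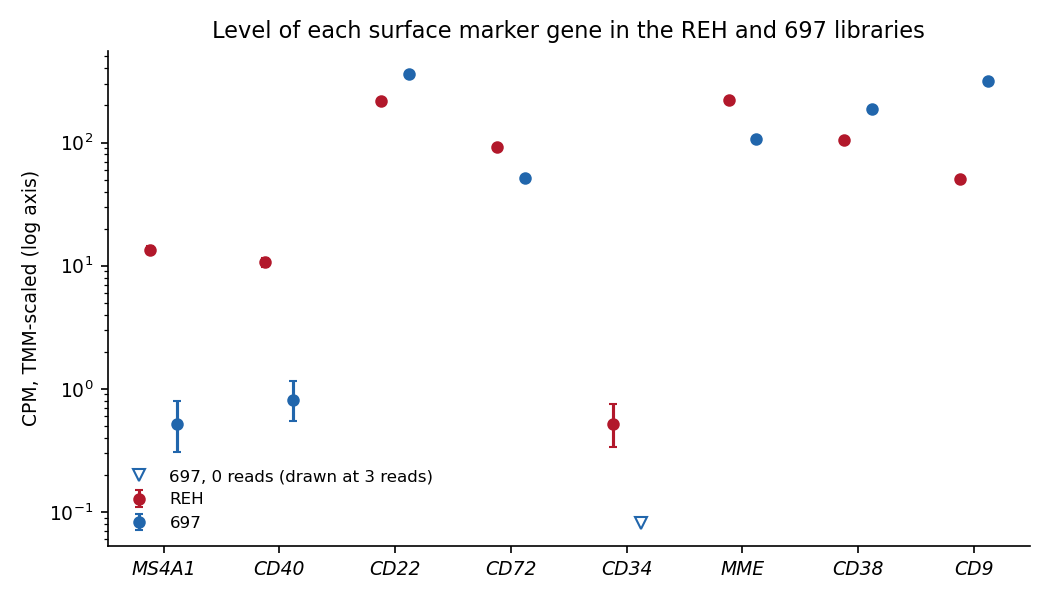
Level of each member in CPM on a log axis, in REH (red) and 697 (blue), 1 library each. Bars are 95% exact Poisson counting intervals, often smaller than the point, and the open triangle marks CD34 in 697, which had 0 reads and is drawn at the level of 3 reads. MS4A1, CD40 and CD34 were near or under 1 CPM in 697, while CD9 reached 316 CPM there and 50.8 CPM in REH.

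**Figure D2:**
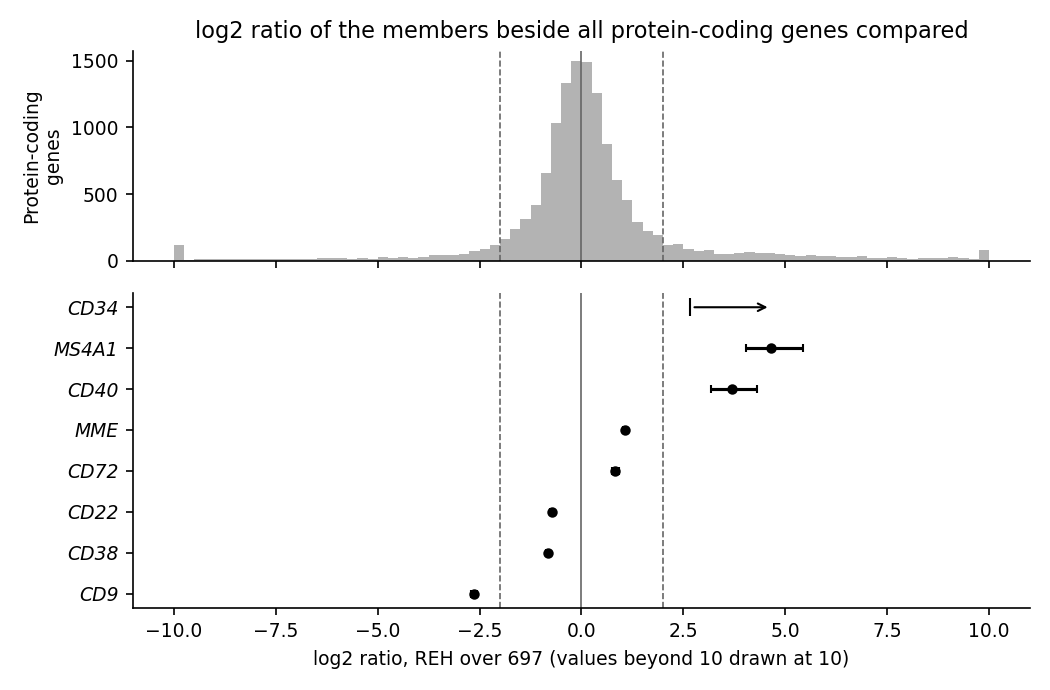
Lower panel, log2 ratio of REH over 697 for each of the 8 members with its 95% counting interval, and upper panel, the same ratio for the 13489 protein-coding genes compared. Dashed lines mark a log2 ratio of 2 in size. CD34 is drawn with an arrow from its value against the floor of 3 reads, since it had 0 reads in 697. CD34, MS4A1 and CD40 lie to the right of the dashed lines and CD9 alone to the left.

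MS4A1 (ENSG00000156738, chromosome 11, 60455846 to 60470752, plus strand) encodes CD20, a membrane protein of B cells that is the target of therapeutic antibodies. It had 670 reads in REH and 19 in 697, or 13.3 and 0.514 CPM. The REH library was thus the high one, with a log2 ratio of 4.66 (95% counting interval 4.04 to 5.44), a 25.3-fold difference (16.5 to 43.3). Of the protein-coding genes compared, 671 had a higher ratio. Even in REH the gene was not abundant. Per kb of exon it stood at the 35.5 percentile of the protein-coding genes with at least 10 reads in that library, and in 697 at the 3.97 percentile.

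CD40 (ENSG00000101017, chromosome 20, 46118271 to 46129863, plus strand) encodes a receptor of the TNF receptor family that binds CD40 ligand on T cells and signals through TRAF adaptors to NF-kappaB. It had 539 reads in REH and 30 in 697, or 10.7 and 0.812 CPM. REH was again the high library, by 13.0-fold (9.14 to 19.8) or a log2 ratio of 3.70 (3.19 to 4.30). A higher ratio was found for 899 protein-coding genes. MS4A1 and CD40 therefore had the same form in these libraries, a low level in REH and a level close to the limit of the depth in 697.

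Among the inhibitory receptors, CD22 was higher in 697 and CD72 higher in REH, both by less than the threshold. CD22 (ENSG00000012124, chromosome 19, 35319261 to 35347361, plus strand) encodes a Siglec that binds sialic acid and recruits phosphatases to the B-cell receptor. It had 10849 reads in REH and 13271 in 697, or 216 and 359 CPM. The log2 ratio was -0.73 (-0.77 to -0.70), so that the 697 level was 1.66 times that of REH (1.62 to 1.71).

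CD72 (ENSG00000137101, chromosome 9, 35609982 to 35646810, minus strand) encodes a lectin-like receptor for the semaphorin CD100 that carries an inhibitory motif. It had 4625 reads in REH and 1906 in 697, or 92.0 and 51.6 CPM. The log2 ratio was 0.83 (0.76 to 0.91), a 1.78-fold higher level in REH. This gene shares 60 exon bases with TESK1 and 152 with the long non-coding RNA gene ENSG00000227933, both on the opposite strand. Reads in shared stretches are not counted without strand, whereas the strand columns of the files keep them by direction. They made up 8.23% of the reads in the strand columns of CD72 in REH and 18.5% in 697. Because the strands are even in these libraries, such reads can come from either gene. The log2 ratio was 0.59 with the first strand column and 0.78 with the second, so that CD72 had the higher level in REH in each count.

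CD34 (ENSG00000174059, chromosome 1, 207880972 to 207911402, minus strand) encodes the sialomucin used to isolate blood stem and progenitor cells. It had 26 reads in REH and 0 in 697, which is 0.517 CPM against a limit of 0.0812 CPM set by 3 reads in the 697 library. The REH level was at least 6.37-fold higher (log2 2.67) against that floor, taking the 26 reads as exact. The exact counting interval of the ratio, which also covers the error of those reads, began at 4.82-fold (log2 2.27). It was the lowest of the members in both libraries, and in REH it stood at the 2.33 percentile of protein-coding genes per kb. A call that rests on 26 reads is the least certain of the 4.

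MME (ENSG00000196549, chromosome 3, 155024124 to 155183704, plus strand) encodes neprilysin or CD10, a surface metallopeptidase known as the common acute lymphoblastic leukemia antigen. It had 11217 reads in REH and 3941 in 697, or 223 and 107 CPM. The log2 ratio was 1.06 (1.01 to 1.12), a 2.09-fold higher level in REH (2.02 to 2.17) that did not reach the threshold. The gene was well covered in both libraries. It shares 214 exon bases with the antisense gene MME-AS1. Reads in shared stretches, which can come from either gene, made up 4.38% of its strand columns in REH and 5.88% in 697.

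CD38 (ENSG00000004468, chromosome 4, 15778275 to 15853232, plus strand) encodes an ectoenzyme that breaks down NAD to cyclic ADP-ribose and ADP-ribose. It had 5280 reads in REH and 6874 in 697, or 105 and 186 CPM. 697 was the high library, by 1.77-fold (1.71 to 1.84) or a log2 ratio of -0.82 (-0.88 to -0.77). CD38 and CD22 thus had ratios of the same sign and close in size, and their counting intervals met at -0.77.

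CD9 (ENSG00000010278, chromosome 12, 6199715 to 6238271, plus strand) encodes a tetraspanin, a protein with 4 membrane passages that gathers integrins and other receptors in the membrane. It had 2555 reads in REH and 11660 in 697, or 50.8 and 316 CPM. The log2 ratio was -2.63 (-2.70 to -2.57), and 697 was 6.21 times as high as REH (5.95 to 6.48). Only 727 protein-coding genes had a lower ratio. Unlike the 3 members called higher in REH, CD9 was well covered in both libraries.

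CD24 encodes a small, heavily glycosylated protein that is anchored to the membrane by a lipid and binds Siglec-10. Its gene, ENSG00000272398 on chromosome 6 (106969831 to 106975627), had no row matched here, and no value was assigned to it. The files do hold ENSG00000185275, which GENCODE 44 names CD24P4, a processed copy of CD24 on chromosome Y. The coding part of CD24 and the same stretch of the copy are shown because their likeness bears on which row a read is counted in, with the differing bases in capitals:
CD24: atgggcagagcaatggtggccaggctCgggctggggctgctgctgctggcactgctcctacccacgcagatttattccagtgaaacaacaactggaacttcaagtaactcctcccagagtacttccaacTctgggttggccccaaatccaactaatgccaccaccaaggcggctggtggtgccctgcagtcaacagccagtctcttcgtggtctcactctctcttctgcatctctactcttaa
CD24P4: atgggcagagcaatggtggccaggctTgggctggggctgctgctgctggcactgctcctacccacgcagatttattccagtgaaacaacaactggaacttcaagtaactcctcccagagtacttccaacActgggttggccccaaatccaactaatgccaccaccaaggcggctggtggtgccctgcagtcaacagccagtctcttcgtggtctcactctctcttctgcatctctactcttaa
Of the 243 bases, 241 were identical (99.2%) and 2 differed. Counted from 1 at the A of the start codon, with the CD24 base first, the differences were C27T and T130A. The longest run without a difference was 113 bases.

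The CD24P4 row had 3046 reads in REH and 2263 in 697, or 60.6 and 61.3 CPM. These levels were close, with a log2 ratio of -0.02 (-0.09 to 0.06). The name CD24P4 comes from the matching of gene IDs made here and not from the authors' counting. Which gene the ID of this row stood for in their gene set was not tested, so the row may hold reads of CD24 itself. Reads of CD24 and of the copy cannot be told apart here, so this row gives no value for either gene alone. The other copies with rows, CD24P1, CD24P2 and CD24P5, had at most 1 read in a library. The first strand column held 61.0% of the reads of this row in REH (95% Wilson interval 59.3 to 62.7) and 61.6% in 697 (59.6 to 63.6). For members with at least 100 reads in a library that share lay between 48.2% and 52.3%. The cause of the uneven strands at this row was not tested.

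Levels of different genes were compared per kb of exon, as CPM divided by the summed exon length of the gene. In REH the order was CD22, CD72, MME, CD38, CD9, MS4A1, CD40 and CD34. CD22 led with 35.0 CPM per kb (34.4 to 35.7), CD72 followed with 31.5 (30.6 to 32.4), and MME had 22.6 (22.2 to 23.0). No neighbours in this order had overlapping counting intervals. CD38 (15.3 CPM per kb) and CD9 (8.72) came next, and MS4A1 (2.79), CD40 (1.91) and CD34 (0.0561) were below the median of protein-coding genes, 5.51 CPM per kb.

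In 697 the order was CD22, CD9, CD38, CD72, MME, CD40, MS4A1 and CD34. CD22 had 58.3 CPM per kb (57.3 to 59.3) and CD9 54.1 (53.2 to 55.1), so CD9, which came after CD38 in REH, came before it in 697. CD38 (27.1), CD72 (17.6) and MME (10.8) completed the 5 members above the median of 6.19 CPM per kb. Below them lay a gap of 74.5-fold. CD40 had 0.145 CPM per kb (0.0975 to 0.206) and MS4A1 0.108 (0.0649 to 0.168), and their order could not be set at this depth because the intervals overlap. The same 5 genes were thus above the median in each library, and CD22 was first in both.

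**Figure D3:**
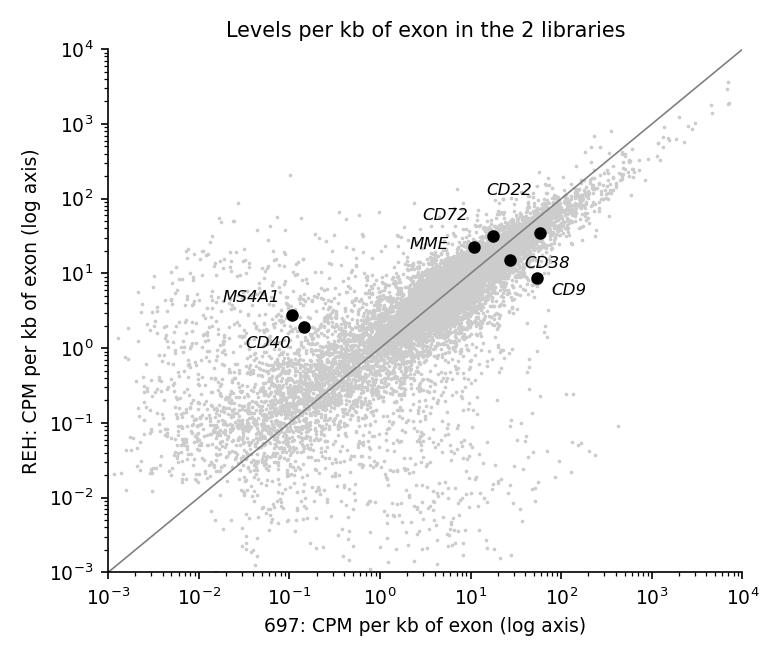
Level in CPM per kb of exon in 697 (horizontal, log axis) against REH (vertical, log axis) for protein-coding genes with reads in both libraries (grey) and the members (black). The line marks equal levels, and CD34 is left out because it had 0 reads in 697. CD22, CD72, MME, CD38 and CD9 lie among the well expressed genes, and MS4A1 and CD40 lie above the line at 697 levels of 0.108 and 0.145 CPM per kb.

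To see whether a member differed alone or with the genes beside it, the nearest 2 protein-coding genes compared on each side were examined. Around MS4A1 the ratios ran from -0.14 (CCDC86) to 1.26 (MS4A14), and around CD40 from -1.50 (SLC12A5) to 0.27 (ELMO2). No neighbour of these 2 members reached the threshold. CD38 and its neighbours had ratios of opposite sign, -0.82 for CD38 and above 0 for all 4 neighbours, of which 3 passed the threshold. BST1, a related NAD-cleaving enzyme with 40.0 kb between the ends of the genes, had 124 reads in REH and 12 in 697 (log2 2.87, 2.07 to 3.92), and PROM1, which encodes the stem cell antigen CD133, had 204 and 10 (3.84, or 7.99 to 31.7 times as high in REH). FGFBP2 had a ratio of 3.02 on 16 and 1 reads (0.87 to 8.95), and FAM200B 0.75.

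The ratios of the 4 neighbours of CD9 also had the opposite sign to it, and LTBR passed the threshold. The intervals of ANO2 (0.14, -0.08 to 0.36) and VWF (0.50, -0.97 to 2.26, on 12 and 6 reads) included 0, however. TNFRSF1A, a TNF receptor, had a log2 ratio of 0.66 (0.59 to 0.74), while LTBR, at 2.63 (1.14 to 5.19), rested on 29 and 3 reads. CD34 lay between genes with large ratios of both signs, though these were 494 kb (CD55), 111 kb (PLXNA2) and 1703 kb (LAMB3) away. CD55, a complement inhibitor, had 457 reads in REH and 9 in 697 (log2 5.15), whereas PLXNA2, a semaphorin receptor, had 1 and 1201 (-10.09, -15.98 to -8.19) and LAMB3 7 and 483 (-6.45). CD46, between CD55 and CD34, had -0.81. Beside MME, PLCH1 at 192 kb was higher in 697 (-3.49). C3orf33 at 579 kb was higher in REH (6.11, 4.56 to 9.49, on 235 and 2 reads). Beside CD22, MAG, which is another Siglec, had -2.92 on 5 and 30 reads, and the neighbours of CD72 ran from -0.67 (TESK1) to 1.69 (SIT1). In all, 10 of the 32 neighbours passed the threshold in either direction, beside 18.1% of protein-coding genes.

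**Figure D4:**
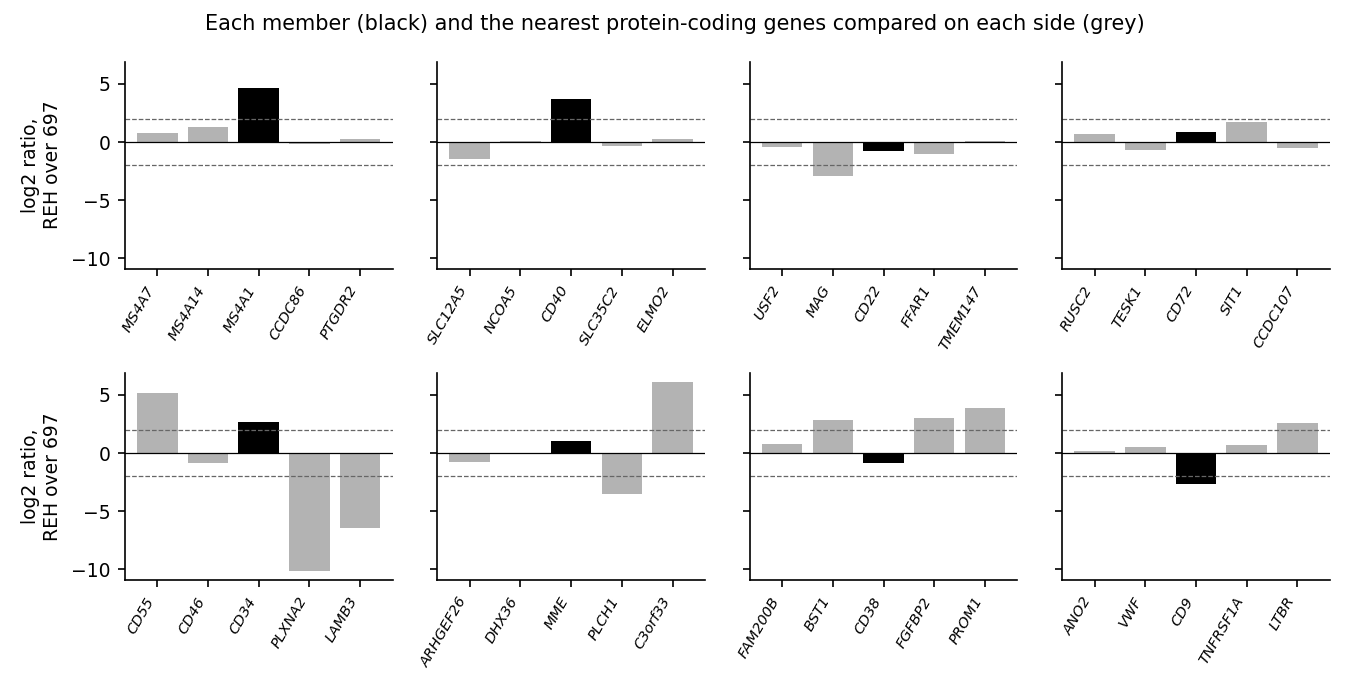
log2 ratio of REH over 697 for each member (black) and for the nearest 2 protein-coding genes compared on each side (grey), in chromosome order, with dashed lines at 2 in size. CD34 is drawn at 2.67, its value against the floor of 3 reads. MS4A1, CD40 and CD9 lie outside the dashed lines with flanking genes inside them, LTBR apart, while CD38 is the lower bar among genes above 0.

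The genes that act with the members or belong to their families were examined next as lists, each described by its counts past the threshold and its median, to be read beside the 10.9%, 7.17% and median of 0.02 of protein-coding genes. Among 53 other B-lineage surface molecules, 40 were compared, of which 13 were higher in REH and 4 in 697, with a median log2 ratio of 0.14. The receptor chains CD79A (1.19, 1.16 to 1.22) and CD79B (24198 and 4443 reads, 1.95 to 2.05) had more reads in REH, CD79B at the threshold itself. CD69, an early activation antigen, had 584 reads in REH and 0 in 697. Against the floor of 3 reads CD69 was at least 143-fold higher (log2 7.16), and its counting interval began at 6.86. On the other side, SLAMF1 had 7 and 6412 reads (-10.18, -11.60 to -9.24) and CD200 6 and 727 (-7.25). SDC1 (CD138), a plasma cell marker, had 2677 reads in REH and 3 in 697. This was a 656-fold difference in CPM with an interval of 224 to 3182. The other plasma cell markers compared had the opposite sign. PRDM1 had 48 reads in REH and 200 in 697 (-2.49, -2.99 to -2.04), and XBP1 had 11122 and 14196 (-0.80). FCRLA had 293 and 2 reads.

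The relatives of MS4A1 were largely silent. Of 16 genes of the MS4A family and its near relatives, 10 had 0 reads in both libraries and 3 were compared, with a median of 1.26. MS4A4A had 33 reads in REH and 0 in 697, at least 8.09-fold higher against the floor of 3 reads. MS4A7 had 134 and 56 reads (0.81). MS4A4A, COL1A1, COL1A2, COL3A1, CD3E, LYZ, FCGR1A, CSF1R, CD2, HBB and HBG1 fell outside the naming rule and were named after their values were seen.

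For CD40, signalling genes were present in both libraries although the receptor was near the limit in 697. All 22 matched genes of the list were compared, 1 was higher in REH and 1 in 697, and the median was 0.12. The adaptors TRAF2 (0.06) and TRAF3 (-0.51) and the kinase gene MAP3K14 (0.31) lay within the threshold. NFKB1, a subunit of NF-kappaB, had 2217 reads in REH and 10470 in 697 (-2.68, -2.75 to -2.62). BIRC3, an inhibitor of apoptosis, had 36 and 1 reads, a 26.5-fold difference in CPM with an interval of 4.46 to 1074. TNFAIP3, which restrains NF-kappaB, had 33629 and 6576 reads and a ratio of 1.91. Of 19 genes known to respond to CD40, 13 were compared, 2 were higher in each library, and the median was -0.39. ICAM1 was higher in REH (2.05, 1.81 to 2.32) and the chemokine receptor gene CCR7 in 697 (-2.26, -2.43 to -2.10). NFKB2 (-0.40) and RELB (0.18) lay within the threshold, as did TRAF1 (-1.12).

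The listed genes that signal with CD22 and CD72 were all measured. Of 18 genes listed for inhibitory coreceptor signalling, 3 were higher in REH and 1 in 697, with a median of 0.27. The list also holds activating genes of B-cell receptor signalling, such as BTK and PLCG2. The phosphatases that CD22 and CD72 recruit differed by less than the threshold, at -0.96 for PTPN6 (SHP-1), -0.55 for PTPN11 (SHP-2) and 1.08 for INPP5D (SHIP-1). LYN, the kinase that phosphorylates their inhibitory motifs, had 577 reads in REH and 2889 in 697 (-2.77, -2.90 to -2.64). The kinase BTK (2.88, 2.78 to 2.98), its substrate PLCG2 (2.98, 2.91 to 3.04) and the adaptor PAG1 (3.66) were higher in REH.

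Among 19 Siglecs and enzymes of sialic acid, 12 were compared, 2 were higher in REH and 3 in 697, and the median was -0.05. ST6GAL1, which makes the sialic acid linkage that CD22 binds, had 6915 and 1592 reads (1.67, 1.60 to 1.75). SIGLEC10, a receptor for CD24, had 41 and 147 reads (-2.27), SIGLEC15 had 965 and 6 (6.77, 5.76 to 8.34), and the sialic acid lyase NPL had 96 and 545 (-2.94). Of 14 ligands and partners of the members, 13 were matched and 11 compared, none was higher in REH and 2 were higher in 697, with a median of -0.77. CD40LG had 0 reads in both libraries. SEMA4D, which encodes the CD72 ligand CD100, had a ratio of -0.13. The other member past the threshold beside SIGLEC10 was PTGFRN, which encodes a partner of CD9. PTGFRN had 0 reads in REH and 2802 in 697. Against the floor of 3 reads PTGFRN was at least 1270-fold higher in 697 (log2 -10.31), and its counting interval ended at -10.01. IGSF8, another CD9 partner, had -0.77.

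Of 32 other tetraspanins, 23 were compared, 7 were higher in REH and 1 in 697, and the median was 0.36. CD9 thus had the opposite sign to those 7, and CD151 had the same sign as CD9, with 186 reads in REH and 3079 in 697 (-4.49, -4.71 to -4.28). The widely expressed CD81 (-0.45), CD63 (-0.01) and CD53 (-0.23) lay within the threshold. In REH against 697, CD37 had 289 and 0 reads, TSPAN7 407 and 0, and TSPAN5 596 and 2, and TSPAN9 had 2626 and 353 (2.45, 2.29 to 2.62). UPK1A, 1 of the 7, rested on 12 and 0 reads and fell within the threshold when set to its floor. It was named after its values were seen.

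Among 16 enzymes that consume or make NAD, 13 were compared, 2 were higher in REH and 1 in 697, with a median of 0.49. BST1 and SARM1 (2.67, 2.06 to 3.40) were higher in REH. NT5E (CD73), which acts after CD38 on the cell surface, had 577 reads in REH and 3474 in 697 (-3.03, -3.16 to -2.91), the same sign as CD38. NAMPT, which makes the NAD precursor, had -1.11. Of 12 surface peptidases beside MME, 9 were compared, 2 were higher in each library, and the median was 0.49. MMEL1, the closest relative of MME, had 0 reads in both. CPM, the gene of carboxypeptidase M, had 715 and 12 reads (5.39, 4.64 to 6.41) and ENPEP 38 and 3, while ECE1 had 384 and 1717 (-2.60, -2.77 to -2.44) and PHEX 16 and 155 (-3.68).

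The sialomucins related to CD34 were divided. Of 6 genes, 5 were compared, none was higher in REH and 3 were higher in 697, with a median of -2.29. PODXL had 1269 reads in REH and 4564 in 697 (-2.29, -2.38 to -2.20), PODXL2 had 10 and 2210 (-8.16, -9.29 to -7.35) and EMCN 3 and 100. SPN (CD43), with 36530 and 8753 reads (1.62), and CD164, with 12217 and 5052 (0.83), had the sign of CD34 and lay within the threshold, and the list summed to 995 CPM in REH and 560 CPM in 697. Both were named after their values were seen. Of 15 stem and progenitor markers, 9 were compared, 4 were higher in REH and 1 in 697, and the median was 1.98. KIT, the stem cell factor receptor, had 617 and 12 reads (5.18, 4.42 to 6.20), MECOM 811 and 1, and CD109 1370 and 4 (7.81). FLT3, the receptor of lymphoid progenitors, had 0.08 (0.03 to 0.13), and MEIS1 had 0 reads in both libraries.

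**Figure D5:**
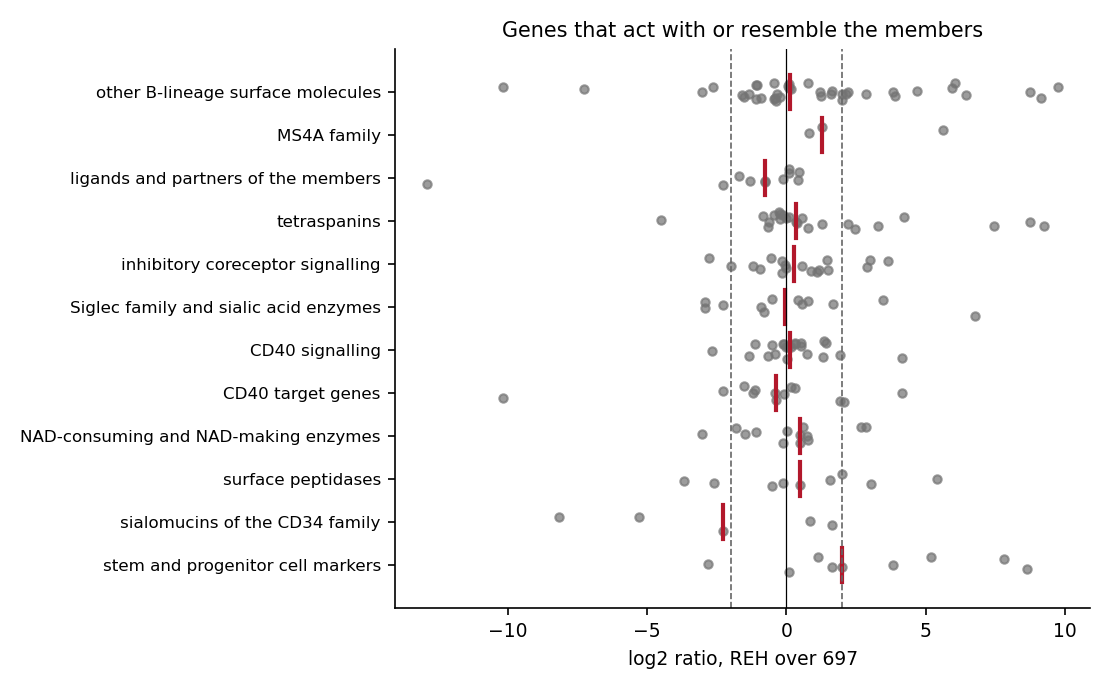
log2 ratio of REH over 697 for each compared gene (grey points, spread vertically for sight) of 12 lists of genes that act with or resemble the members, with the list median (red bar) and dashed lines at 2 in size. Medians lie between -0.77 and 1.26 for 10 lists, at -2.29 for the sialomucins of the CD34 family and at 1.98 for the stem and progenitor markers. Fitted values of genes with 0 reads in a library depend on the 0.5 reads added.

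The promoters of the members were searched for the letters that RUNX, ETS and E proteins are known to bind, on both strands. RefSeq windows of 250 bases before the start (GRCh38.p14) were searched for 7 members, 15 windows in all. The RUNX letters TGTGGT or TGCGGT were in 16.3% of all 35116 windows and in 1 member window, at CD9. The ETS letters CCGGAA were in 14.5% of all windows and in 2 member windows, both of MME. The E-box CAGGTG was in 17.5% of all and in 5 member windows, among them the same 2 of MME. These 2 windows overlap and hold the same ETS match and the same E-box match, each counted in both. The CD9 window is shown as the member window that held RUNX letters. The first 200 bases of its window, chr12:6200150-6200349 on the plus strand, end 50 bases before the start of transcription, and the capitals mark the RUNX letters read on the opposite strand:
CD9: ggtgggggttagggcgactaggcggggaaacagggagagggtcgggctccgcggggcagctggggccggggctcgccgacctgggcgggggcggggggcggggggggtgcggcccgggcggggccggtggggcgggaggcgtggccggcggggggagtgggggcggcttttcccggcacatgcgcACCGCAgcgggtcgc
A match describes these letters in this window and is not a binding site.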

How the data were processed

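RNA sequencing of REH and 697 cells, with 1 library per line, was analysed. The deposited values are read counts per gene made by the authors with STAR, not normalized and not filtered, with 1 column for either strand and 1 for each strand setting. The study's methods name hg38 and poly(A) purification, while the submitters' processing notes name hg19 and the labels name ribodepletion and a stranded kit. The first strand column held 50.1% of the stranded reads in REH and 50.2% in 697, so the column for either strand was used. Reads mapped to several places (10.8% and 15.4% of all reads) and reads in no gene are not in the gene counts or totals. Near-identical copies therefore lose reads.

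Gene IDs were matched to GENCODE 44 on GRCh38, which gave names, exon lengths and positions (51996 matched, 5777 not). These are not coordinates used by the authors. TRAC, PECAM1 and IKBKG had no matched row and are not analysed here. Some genes that the naming rule covers are not reported here. TMM factors from edgeR 4.0.16 under R 4.3.3 were 1.11 for REH and 0.899 for 697. A gene was compared if either library held 10 or more of its reads. Intervals of ratios are 95% exact Clopper-Pearson intervals of the share of reads from REH, those of levels are exact Poisson intervals, and shares have Wilson intervals. All intervals and the floor of 3 reads per library describe counting error alone, because PCR copies are counted as reads. DESeq2, the tool of the study, requires replicates, so no test was made.

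The 9 members and the 19 gene lists (251 genes, 177 compared) were chosen with earlier results of these data known. Named are the members, the anchor genes of each list, up to 6 others per list that had 100 or more reads in a library and a log2 ratio of 2 or more in size, ranked by the interval bound nearest 0, and the nearest 2 compared protein-coding genes on each side of a member. Promoter windows are from RefSeq, and those of MS4A1 and CD40 are not used here. Alternatives were unscaled totals, size factors from DESeq2 1.42.0, TMM over protein-coding genes, a pseudocount of 5 reads, minimums of 1 and 50 reads, a threshold of 1, each strand column and the longest transcript as length. Other steps used matplotlib 3.10.9, pandas 2.3.3, numpy 2.4.6 and scipy 1.17.1 under Python 3.11.15, and the computation was tested on simulated data.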

Additional observations from a re-analysis of the deposited data

How the results depend on the processing

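Of 62 member ratios computed under the alternatives, 55 moved by less than their counting interval, 7 moved by more and 0 changed sign. Unscaled totals raised the median of protein-coding genes by 0.31 and gave log2 ratios of -0.43 for CD22, 1.14 for CD72, 1.37 for MME, -0.52 for CD38 and -2.33 for CD9, so relative to that median the members stood as before. A pseudocount of 5 reads gave 2.19 for CD34, and the first strand column gave 0.59 for CD72. The members higher in REH numbered 3, but 2 with the second strand column or a minimum of 50 reads, where CD34 dropped out on its few reads, and 4 at a threshold of 1, where MME joined. The 1 member higher in 697 was CD9 throughout. At a threshold of 1, 58 list genes were higher in REH (35 at the threshold of 2) and 39 in 697 (21). Counts of single lists had 342 alternative values, of which 40 moved by over 1.5 times or to or from 0. With genes at 0 reads set to their floor, an alternative chosen after seeing the data, the higher tetraspanins in REH numbered 6 instead of 7, the myeloid median fell from 5.28 to 3.99, and protein-coding genes higher in REH numbered 1391 instead of 1475.

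With the longest transcript as length, levels per kb in REH were 3.75 for MS4A1, 65.9 for CD22, 51.1 for CD72, 38.6 for MME, 18.7 for CD38, 15.2 for CD9 and 3.21 for CD40. In 697 they were 110 for CD22, 28.7 for CD72, 18.5 for MME, 33.1 for CD38, 94.3 for CD9 and 0.243 for CD40, and the order of the members was the same in each library. No paired analysis was possible because neither line had a second library, and for the same reason no replicate could be left out. Depth limits MS4A1, CD40 and CD34 in 697, which had 30 reads or fewer.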
